A study of Mus musculus with 4 samples.

Results

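Peroxisome genes of the mouse were followed in naive microglia, which are macrophages that reside in the brain. The set holds 29 named genes out of 56832 gene rows in each deposited count file. They were chosen by symbol for their known place in peroxisome assembly or metabolism, with earlier results of these data known. All 29 were present as rows. The study compared graft-derived myeloid cells of the brain with microglia of animals that received no graft, and only the latter were analysed here. The 4 libraries were made from female C57BL/6 mice without any intervention, and the labels number them as replicates 1 to 4 of 1 group. The cells were sorted from dissociated brain as CD11b-positive with low to intermediate CD45, and their RNA was amplified with a low-input kit. The age of the mice is not given in the labels. Whether the libraries are of separate animals is not in the labels, so the spread reported here is that between these samples and may be technical.

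Peroxisomes are single-membrane organelles that shorten very-long-chain and branched fatty acids, start the synthesis of ether lipids such as plasmalogens, and break down hydrogen peroxide. Their enzymes are made in the cytosol and imported folded. PEX5 carries cargo with a signal at the C-terminus and PEX7 carries cargo with a signal near the N-terminus. At the membrane, PEX13 and PEX14 form the docking site, PEX2 and PEX10 belong to the RING ubiquitin ligase that marks the receptor for recycling, and PEX6, anchored by PEX26, belongs to the motor that pulls it out. PEX3, PEX16 and PEX19 place proteins in the membrane. ABCD transporters bring acyl-CoA into the organelle, although ABCD4 is known from the lysosome, where it handles cobalamin. In brain, peroxisomal defects are known for the loss of myelin and for activated microglia.

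Between 20360121 and 23292655 reads per library were assigned to genes. Levels are in CPM, the share of that total taken by a gene, scaled to counts per 1000000. Where a gene had no read, the level could still be as high as 3 counts would give, which is 0.129 to 0.147 CPM. The libraries held 14850, 18978, 18431 and 13944 genes with a count, so replicates 1 and 4 were the poorer in genes. All 8 microglial markers reached 100 CPM in every library, and their summed level was 51205, 26327, 27252 and 54771 CPM. Neutrophil markers summed to 1499, 285, 276 and 2403 CPM (8 of 8 at 1 CPM or more in every library), oligodendrocyte markers to 517, 1844, 1875 and 629 CPM (8 of 8), and border-associated macrophage markers to 182, 619, 719 and 365 CPM (6 of 7). Immediate early genes, which cells switch on soon after a stimulus, summed to 5240, 57267, 50569 and 5452 CPM (12 of 12). Astrocyte markers summed to 240 to 504 CPM (5 of 7), endothelial to 90.7 to 180 CPM (3 of 6), monocyte to 65.4 to 188 CPM (3 of 5), B cell to 19.1 to 85.8 CPM (1 of 4), red blood cell to 13.7 to 58.0 CPM (2 of 3) and neuronal to 12.4 to 36.3 CPM (1 of 5). The B cell marker Ms4a1 was at 0 counts in all libraries. In every bulk library, more cells of a type and more RNA per cell cannot be told apart. Microglial and neutrophil markers were thus highest in replicates 1 and 4, as were 6 of the 29 members (Pex2, Pex10, Pex11a, Abcd4, Ech1 and Amacr). Oligodendrocyte, border-associated macrophage and immediate early markers were highest in replicates 2 and 3, as were 6 others (Pex6, Pex26, Pex13, Pex16, Gnpat and Cat). The rest of the 29 members had neither pattern. How many of all genes have either pattern was not counted, so these counts are not a result about the members. The part of these markers, and of the number of genes detected, in the levels of the members was not tested.

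Most peroxisome genes were present in every library at a moderate level. Of the 29, 22 reached 1 CPM or more in all 4 libraries, 20 reached 10 CPM and 4 reached 100 CPM. Among the 21681 genes that had a read somewhere, the corresponding shares were 38.8%, 26.4% and 5.28%. The median of the members' mean level was 37.3 CPM, against 3.02 CPM over those 21681 genes. The 29 genes together took 1933, 1626, 1610 and 2013 CPM in replicates 1 to 4, a mean of 1795 ± 207 CPM (SD, n = 4). The 4 genes at 100 CPM or more throughout were Pex2, Hsd17b4, Scp2 and Ech1, and the 7 that missed 1 CPM in some library were Pex5, Pex6, Pex26, Pex11g, Ehhadh, Decr2 and Hacl1.

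**Figure D1:**
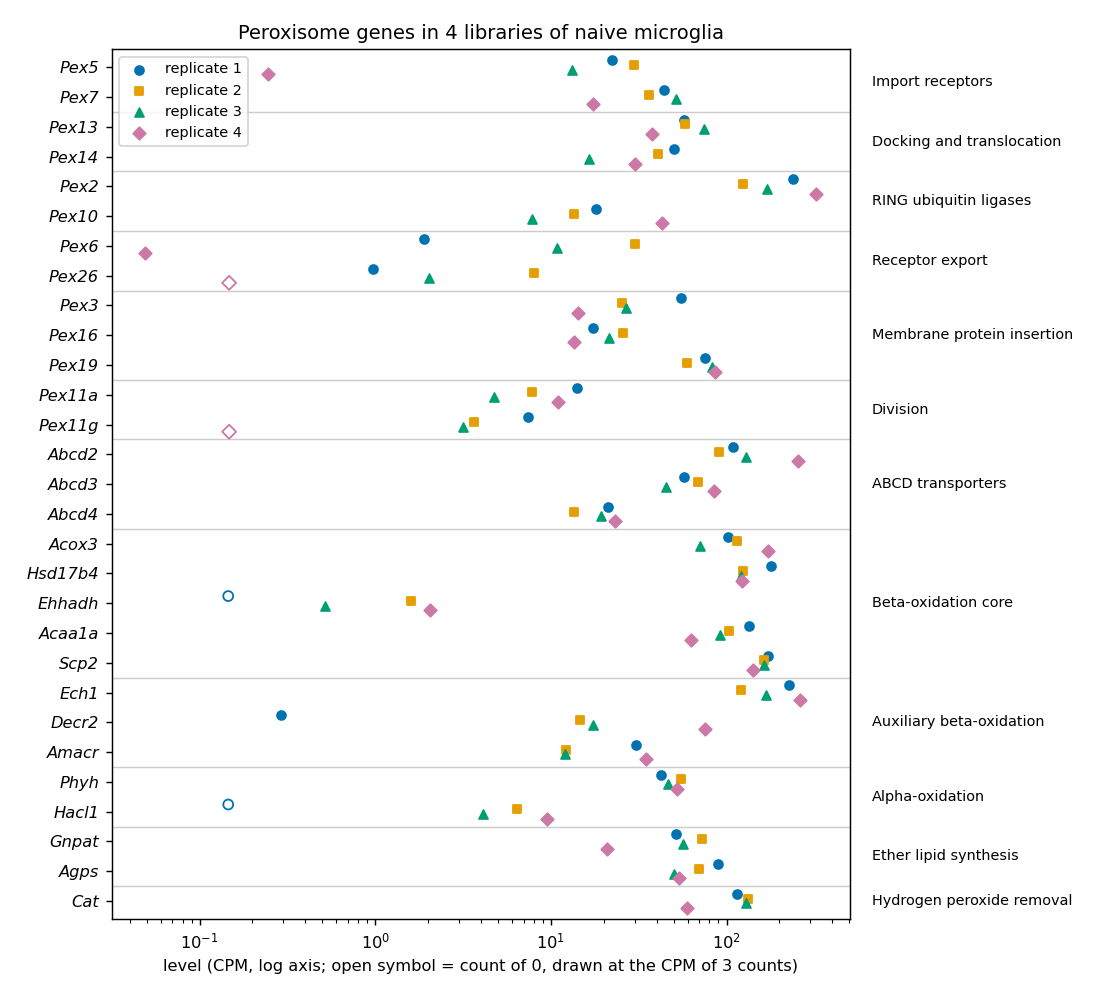
Level of each of the 29 genes in CPM (log axis) in the 4 libraries, 1 symbol per replicate, grouped by role. An open symbol is a count of 0 drawn at the CPM of 3 counts, so that the single read of Pex6 in replicate 4 lies to its left. Pex5, Pex6, Pex26, Pex11g, Ehhadh, Decr2 and Hacl1 are the genes with a symbol under 1 CPM, and the symbols of Scp2, Phyh and Pex19 lie closest together.

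Levels of different genes were compared per kb of exon, since long transcripts give more reads. Pex2 was the highest at 94.3 ± 38.3 CPM per kb (SD, n = 4), followed by Ech1 at 85.1 ± 27.7, Scp2 at 46.1 ± 3.69, Cat at 41.7 ± 12.9 and Hsd17b4 at 40.2 ± 8.40 CPM per kb. Pex2 and Ech1 lay at percentiles 97.6 and 97.3 of the 20210 genes that had both a count and an annotated length, and the median of the 29 members lay at percentile 80.4. At the lower end stood Pex11g at 1.05 ± 0.90, Hacl1 at 1.01 ± 0.81, Pex26 at 0.49 ± 0.64 and Ehhadh at 0.35 ± 0.32 CPM per kb. Along this order, only 3 of the 28 steps between neighbours were larger than the wider of the 2 SDs and had the same direction in all 4 libraries. These were the steps from Ech1 to Scp2, from Hsd17b4 to Phyh and from Abcd4 to Pex11g. Pex2 also exceeded Ech1 in all 4 libraries, but by less than that SD. Only neighbours were compared in this way, and genes further apart within a stretch can still differ by more than their SDs, as Abcd3 and Abcd4 do below.

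**Figure D2:**
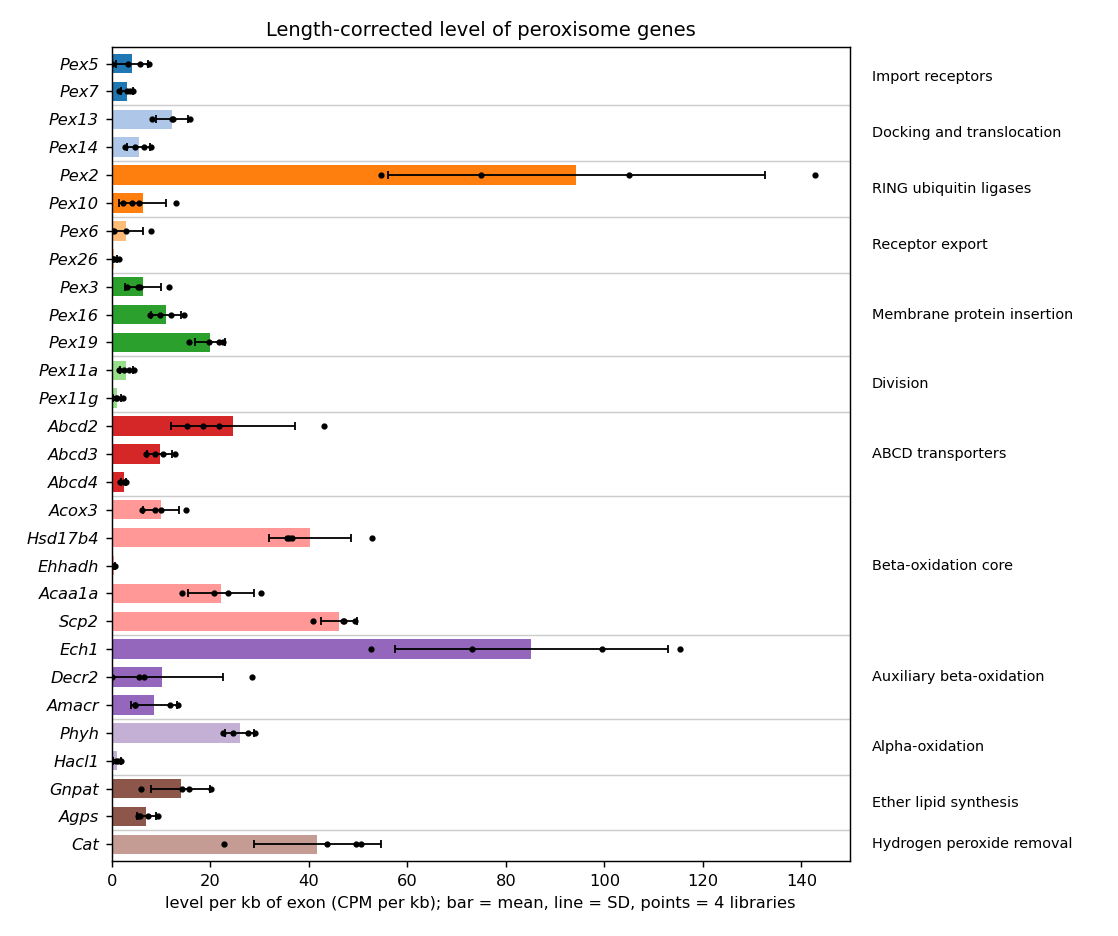
Level per kb of exon (CPM per kb) of each gene, with the bar at the mean of 4 libraries, the line at 1 SD and a point for each library. Pex2 and Ech1 stand highest, at means of 94.3 and 85.1 CPM per kb, and Ehhadh lowest at 0.35.

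Of the import receptor genes, Pex7 was present throughout and Pex5 was nearly missing from replicate 4. Pex5 gave 22.3, 29.6, 13.2 and 0.246 CPM in replicates 1 to 4. Its 5 reads in replicate 4 set that library apart from the other 3, with the highest library 120-fold above it. Pex7 gave 44.2, 36.3, 51.3 and 17.4 CPM, again lowest in replicate 4. Per kb of exon, Pex5 over Pex7 had log2 ratios of 0.63, 1.32, -0.34 and -4.39. The mean ratio was -0.70 ± 2.56 (SD, n = 4), and without replicate 4 it turned to 0.54, so the order of the receptors per kb was mixed. It rests on the exon lengths used, 3943 bases for Pex5 and 12092 for Pex7: without the length correction Pex7 was the higher in 4 of 4 libraries, with a mean ratio of -2.31.

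Both docking genes were present throughout, with coefficients of variation of 26.2% for Pex13 and 42.0% for Pex14. Pex13 gave 56.9, 57.9, 74.2 and 37.8 CPM and Pex14 gave 50.1, 40.8, 16.5 and 30.01 CPM. Pex13 was the higher per kb in 4 of 4 libraries, with log2 ratios of 0.62, 0.94, 2.60 and 0.77. An opposite-strand gene shares 28.3% of the exon bases of Pex14 in the GENCODE annotation, and reads of such overlaps cannot be told apart because the strand setting of the counting is not given in the sources used here.

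The ligase gene Pex2 was one of the most abundant members and its partner Pex10 was far lower. Pex2 gave 238, 124, 170 and 324 CPM in replicates 1 to 4, highest in replicates 4 and 1. Pex10 gave 18.1, 13.5, 7.81 and 43.1 CPM, also with replicate 4 above the rest. The log2 ratio of Pex2 over Pex10 per kb was 4.25, 3.74, 4.98 and 3.45, so Pex2 exceeded Pex10 in every library by 4.10 ± 0.67 (SD, n = 4), with no overlap of their levels.

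The export genes were the least evenly measured part of the import machinery. Pex6, which encodes the ATPase, gave 1.89, 30.03, 10.8 and 0.0491 CPM, that is 39, 678, 251 and 1 reads. Pex26, which encodes its membrane anchor, gave 0.971, 8.06, 2.02 and 0 CPM, from 20, 182, 47 and 0 reads. The 2 genes had the same order of libraries, with replicate 2 highest, then 3, then 1, and replicate 4 at or under the floor of 3 counts. Pex26 was at least 54.7-fold higher in replicate 2 than that floor in replicate 4. In replicates 1 to 3, Pex6 exceeded Pex26 per kb by 1.52, 2.47 and 2.98 on the log2 scale, and replicate 4 gives no ratio. Neither gene shares more than 2.35% of its exon bases with another annotated gene.

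The order of libraries of Pex6 and Pex26 was found in 5 of the 29 members, which include Pex6 and Pex26 themselves. The others were Pex16, Gnpat and Cat. How many of all genes have this order was not counted, so the count is not a result about the members. The upstream sequences of Pex6 and Pex26 are shown as those of the export genes, whose coefficients of variation, 128% and 131%, were the widest of the set, with Decr2 as the next widest and Scp2 as the steadiest member. Each is the 250 bases before the annotated start, 5′ to 3′ on the strand of the gene, from the RefSeq promoter table of build GRCm38.p6. The windows are chr17:46711226-46711475 (plus strand) for Pex6, chr6:121183417-121183666 (plus) for Pex26, chr17:26090165-26090414 (minus) for Decr2 and chr4:108118548-108118797 (minus) for Scp2. Capitals mark the GC box GGGCGG, the ETS core CCGGAA or the TATA box TATAAA, read on either strand.
Pex6: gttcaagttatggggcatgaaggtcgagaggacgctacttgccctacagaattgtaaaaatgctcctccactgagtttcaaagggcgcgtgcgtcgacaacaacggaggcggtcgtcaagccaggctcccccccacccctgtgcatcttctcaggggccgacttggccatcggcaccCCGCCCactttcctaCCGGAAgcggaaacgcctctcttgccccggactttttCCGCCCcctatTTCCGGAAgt
Pex26: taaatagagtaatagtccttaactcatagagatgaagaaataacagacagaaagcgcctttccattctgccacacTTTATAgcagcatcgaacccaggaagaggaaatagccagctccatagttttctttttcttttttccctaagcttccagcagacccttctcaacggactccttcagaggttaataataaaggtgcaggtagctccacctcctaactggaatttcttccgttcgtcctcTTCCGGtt
Decr2: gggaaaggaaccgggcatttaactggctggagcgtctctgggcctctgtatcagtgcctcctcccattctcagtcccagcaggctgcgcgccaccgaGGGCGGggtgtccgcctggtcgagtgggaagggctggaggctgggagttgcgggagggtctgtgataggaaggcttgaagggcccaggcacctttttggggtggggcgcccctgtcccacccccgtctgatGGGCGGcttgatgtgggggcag
Scp2: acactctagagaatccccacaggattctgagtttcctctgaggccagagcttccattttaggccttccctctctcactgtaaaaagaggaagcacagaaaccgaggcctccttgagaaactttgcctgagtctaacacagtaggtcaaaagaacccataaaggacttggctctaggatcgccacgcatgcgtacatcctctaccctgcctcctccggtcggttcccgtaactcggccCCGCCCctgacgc

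The Pex6 window held 2 GC boxes and 3 matches of the ETS core, a sequence recognised by many transcription factors of the ETS family, of which 2 overlap on opposite strands just before the start. The Pex26 window held 1 ETS core, also close to the start, and 1 TATA box. The Decr2 window held 2 GC boxes and the Scp2 window 1, and neither held an ETS core. Of the other 3 members with the library order of Pex6, Gnpat had 1 ETS core in its window, and the windows of Pex16 and Cat had none. In all, 8 members had an ETS core, and the rest of these, Pex7, Pex11a, Abcd3, Acox3 and Hacl1, had other library orders. A link between the ETS core and the library order was not tested. The promoter table matched 23 of the 29 members in 27 windows. Of those windows, 66.7% held a GC box, 29.6% an ETS core, 33.3% a CCAAT box (CCAAT) and 11.1% a TATA box. Over all 32851 windows of that length, the shares were 32.7%, 12.03%, 33.8% and 12.4%. Those windows were neither limited to genes expressed here nor matched to the members in CG content. The letters AGGTCANAGGTCA, a direct repeat that binds PPAR with its RXR partner and is known from liver peroxisome genes, were in no member window and in 0.0335% of all windows. With so rare an exact match, its absence from the 27 member windows cannot show that these genes lack a PPAR site. The TFEB-type E-box CACGTG was in the Gnpat window alone among members and in 6.02% of all windows. The member windows held a median of 13 CG dinucleotides, against 6 over all windows. A match of letters describes the sequence and does not show a bound site.

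Genes that insert membrane proteins were all present. Pex19, the chaperone of newly made membrane proteins, gave 75.3, 59.9, 82.7 and 86.3 CPM and differed by no more than 1.44-fold between libraries. Pex16 gave 17.3, 25.9, 21.4 and 13.6 CPM. Pex3, the membrane receptor for PEX19, gave 55.0, 25.2, 26.9 and 14.3 CPM, with replicate 1 above the rest. Pex19 was the highest of the 3 per kb in each library, exceeding Pex3 by 1.79 ± 0.89 and Pex16 by 0.88 ± 0.60 on the log2 scale (SD, n = 4).

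The division genes of the set were low. Pex11a, which promotes elongation and fission of the organelle, gave 14.1, 7.84, 4.77 and 10.95 CPM. Pex11g gave 7.42, 3.63, 3.18 and 0 CPM. Replicate 4 held no read of Pex11g, and replicate 1 was at least 50.4-fold above the floor there. Pex11a exceeded Pex11g per kb by 1.02, 1.20 and 0.68 on the log2 scale in replicates 1 to 3 and was at least 79.4-fold higher in replicate 4. An opposite-strand gene shares 41.1% of the exon bases of Pex11g.

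Among the transporter genes, Abcd2 was the highest per kb of union exon in each library. Abcd2, which carries very-long-chain and polyunsaturated acyl-CoA, gave 110, 91.0, 129 and 256 CPM, with replicate 4 above the other 3. Abcd3, which carries branched-chain and bile acid precursors, gave 57.4, 69.1, 45.2 and 84.3 CPM. Abcd4 gave 21.0, 13.5, 19.4 and 23.04 CPM. Per kb, Abcd3 over Abcd2 had log2 ratios of -1.08, -0.55, -1.67 and -1.75, and Abcd3 exceeded Abcd4 by 1.73, 2.64, 1.501 and 2.15. With the longest transcript as length, 5532 bases for Abcd2 and 3489 for Abcd3, the ratio of Abcd3 over Abcd2 was 0.27 in replicate 2, so that Abcd3 was the higher there, and stayed under 0 in the other 3 libraries. The levels were 24.6 ± 12.6, 9.71 ± 2.53 and 2.40 ± 0.51 CPM per kb for Abcd2, Abcd3 and Abcd4 (SD, n = 4). Summed CPM of the 3 genes were 188, 174, 194 and 364.

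The beta-oxidation core was carried by 4 of its 5 genes. Hsd17b4, the D-bifunctional enzyme that performs the second and the third step for very-long-chain and branched substrates, gave 180, 124, 121 and 122 CPM, so that replicate 1 stood above 3 nearly equal libraries. Scp2, which encodes a thiolase for branched chains and a sterol carrier protein, gave 172, 163, 164 and 142 CPM. With a coefficient of variation of 8.00%, Scp2 was the steadiest of the 29. Acaa1a, the thiolase for straight chains, gave 134, 104, 91.6 and 63.0 CPM, and Acox3, an oxidase for branched chains, gave 102, 114, 70.3 and 172 CPM. Reads of Acaa1a could be split or dropped where it matches its close copy Acaa1b, which stood at 1.88 ± 0.27 CPM (SD, n = 4).

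Ehhadh, the L-bifunctional enzyme, was the lowest of the 29 per kb, at 0, 1.59, 0.515 and 2.06 CPM from 0, 36, 12 and 42 reads. Hsd17b4 exceeded it per kb by 6.07, 7.63 and 5.68 on the log2 scale in replicates 2 to 4 and was at least 1081-fold higher in replicate 1. Both bifunctional enzymes catalyse the same pair of steps by way of opposite stereoisomers. Between the thiolase genes, Scp2 exceeded Acaa1a per kb in 4 of 4 libraries, with log2 ratios of Acaa1a over Scp2 of -0.70, -0.998, -1.18 and -1.52. Reads of Scp2 were counted per gene, so the share that codes for its thiolase is not known.

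The auxiliary enzymes, which prepare unsaturated or wrongly oriented acyl-CoA, differed in steadiness. Ech1, an isomerase found in peroxisomes and mitochondria, gave 227, 120, 167 and 263 CPM. Amacr, the racemase for branched chains, gave 30.7, 12.2, 12.02 and 34.9 CPM, with replicates 1 and 4 each above replicates 2 and 3. Decr2, the peroxisomal dienoyl-CoA reductase, gave 0.291, 14.6, 17.3 and 75.3 CPM from 6, 329, 403 and 1534 reads. Replicate 4 was thus 259-fold above replicate 1, although these were the 2 libraries with the fewest genes detected. Ech1 over Decr2 per kb had log2 ratios of 9.71, 3.26, 3.49 and 2.02, and Decr2 shares no exon bases with another annotated gene.

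In alpha-oxidation, which removes 1 carbon from phytanic acid, the first enzyme was steady and the lyase was low. Phyh, phytanoyl-CoA hydroxylase, gave 42.6, 55.1, 46.5 and 52.2 CPM, a coefficient of variation of 11.5%. Hacl1, the lyase, gave 0, 6.38, 4.12 and 9.53 CPM from 0, 144, 96 and 194 reads. Replicate 1 held no read, and replicate 4 was at least 65.5-fold above the floor there. Phyh exceeded Hacl1 per kb by 4.49, 4.87 and 3.84 on the log2 scale in replicates 2 to 4 and was at least 765-fold higher in replicate 1. Other annotated genes share 33.3% of the exon bases of Hacl1, and 31.1% are shared on the same strand. Reads there could be dropped as ambiguous under any strand setting, so the level of Hacl1 may be understated, which was not tested.

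The ether lipid genes were present in every library. Gnpat, the acyltransferase that starts the pathway, gave 51.4, 72.2, 56.4 and 20.9 CPM, and replicate 4 lay under the other 3. Agps, the enzyme that forms the ether bond, gave 89.1, 70.1, 50.3 and 53.6 CPM. Per kb Gnpat exceeded Agps by 0.60, 1.44, 1.56 and 0.04 on the log2 scale, but without the length correction the mean ratio was -0.49, so their order rests on the exon lengths used, 3587 and 9421 bases. Catalase (Cat), which breaks down hydrogen peroxide, gave 114, 132, 130 and 59.8 CPM, with replicate 4 under the other 3. Red blood cells are rich in catalase, and the red cell marker sum was 32.4, 15.99, 13.7 and 58.0 CPM in the same libraries. The part of such cells in the level of Cat was not tested.

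**Figure D3:**
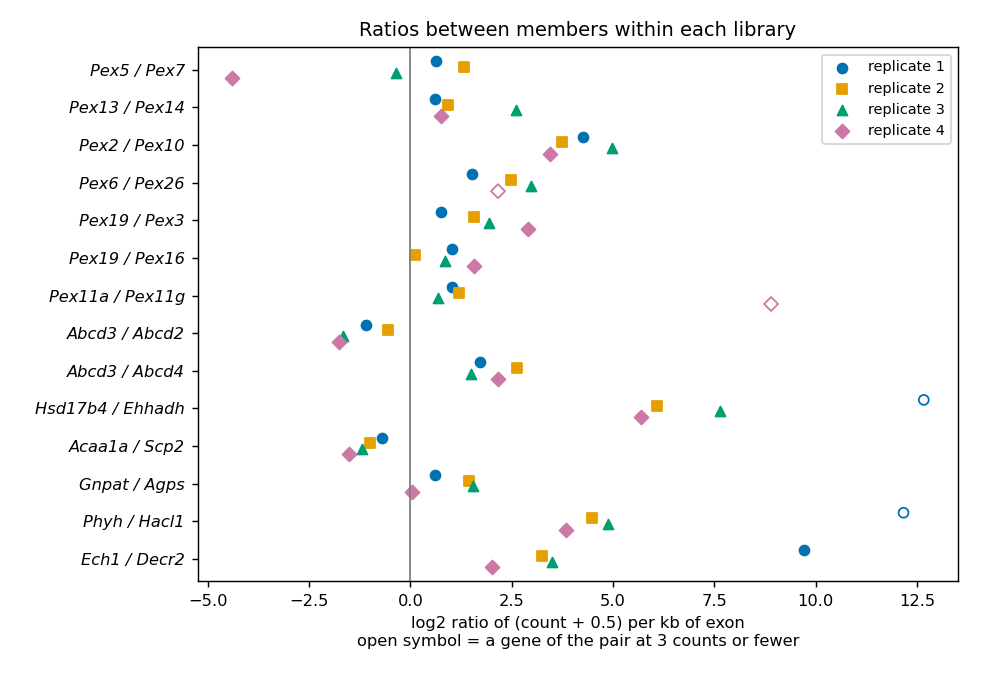
Ratio on the log2 scale, with 0.5 added to counts and each divided by exon length, for 14 pairs of members, 1 symbol per library. An open symbol marks a library in which a gene of the pair had 3 counts or fewer, where the position depends on the pseudocount. In 13 pairs all 4 symbols lie on 1 side of 0, and Pex5 over Pex7 crosses it.

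In 13 of the 14 pairs 1 gene exceeded the other in each library, the first-named gene in 11 and the second in 2, and 1 pair was mixed. For Pex6 over Pex26 this counts replicate 4, where the genes had only 1 and 0 reads. An exact permutation test that flips the sign of each library, two-sided, gave p = 0.13 for each of these 13 pairs, adjusted p = 0.13 over the 14, and p = 0.875 for Pex5 over Pex7. With 4 libraries this is the smallest p the test can give, so none could pass 0.05.

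The spread between libraries was unequal among members. Of the 24 members with a mean of 10 CPM or more, 15 differed by over 2-fold between the highest and the lowest library, where 66.1% of the 8175 genes at that level did. Over 4-fold were 4 members, Pex5, Pex6, Pex10 and Decr2, where 30.3% of genes were, and over 10-fold 3 of these, without Pex10, where 16.6% of genes were. The median coefficient of variation was 34.9% for these 24 members and 40.2% over the 8175 genes. A count of 0 in at least 1 library was found for 4 of the 29, Pex26, Pex11g, Ehhadh and Hacl1, and for 18% of the 13109 genes with a mean of 1 CPM or more. The members' shares were thus near or under those of all genes.

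**Figure D4:**
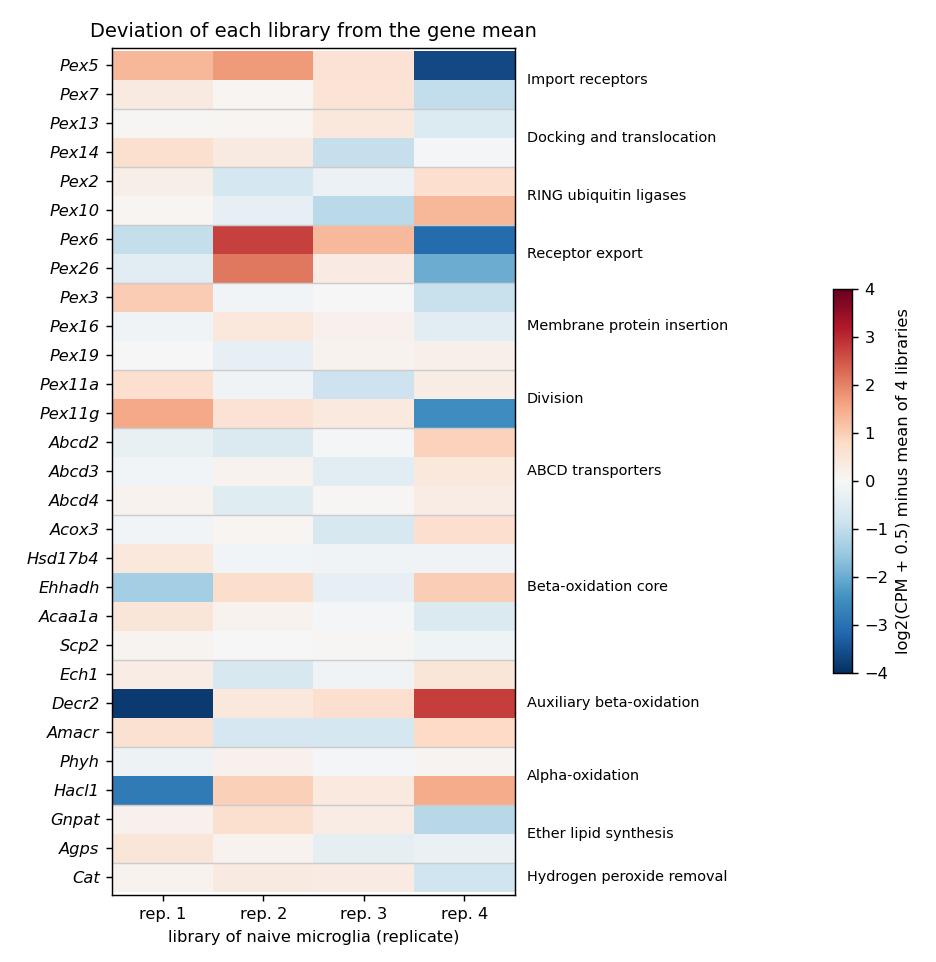
Deviation of each library from the mean of the gene over 4 libraries, on the scale of log2(CPM + 0.5), for the 29 genes grouped by role. Red is above and blue below the mean, with the scale ending at 4 in either direction. Scp2, Phyh and Pex19 are pale throughout, while Pex5, Pex6, Pex26 and Pex11g are darkest blue in replicate 4 and Decr2 and Hacl1 in replicate 1.

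No library was high or low for all members. Replicate 4 was the lowest library for 12 of the 29 genes and the highest for 12 others. Over the same 8175 genes it was the lowest for 37.7% and the highest for 36.0%. Replicate 1 was the lowest for 4 members and the highest for 8, replicate 2 for 5 and 7, and replicate 3 for 8 and 2. Over those 8175 genes, replicates 1, 2 and 3 were the lowest for 21.9%, 22.6% and 17.9% and the highest for 27.5%, 20.7% and 15.7%. Members with a read numbered 27, 29, 29 and 27 in replicates 1 to 4.

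Whether a gene varied more between libraries than the trend at its expression level was tested for all genes with edgeR's quasi-likelihood fit. Its filter needs counts in every library, and it kept 22 of the 29 members, leaving out Pex5, Pex6, Pex26, Pex11g, Ehhadh, Decr2 and Hacl1, the same 7 that missed 1 CPM in some library. None of the 22 passed an adjusted p of 0.05, and none had an unadjusted p under 0.05. Over all 9075 genes fitted, 0% were called, 395 (4.35%) had an unadjusted p under 0.05, and DESeq2 marked 0 of 21681 genes as dispersion outliers. The lowest p of the members was 0.193, for Abcd2, with an adjusted p of 0.944 in edgeR's test and a dispersion 1.32 above the trend on the log2 scale. The dispersion of Phyh stood at -3.28 on that scale, the lowest of the members fitted. In all, 12 of the 22 lay above the trend, against 48.2% of all genes fitted. In simulated counts the test found 47% of genes changed 16-fold in 2 of 4 libraries and 1% of those changed 4-fold, so spreads of the size seen here were mostly not detectable.

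Other genes of the organelle were read from 6 lists, of which 62 genes were measured. Of these, 36 were kept by the filter, and none passed the test in either an adjusted or an unadjusted p of 0.05. Of the 55 listed genes with a count in any library, 36 reached 1 CPM or more in every library. Of all 21681 genes with a count, 38.8% did. By list these were 8 of 11 for membrane and quality control and 5 of 7 for division and turnover. Fatty acid and CoA enzymes had 13 of 18, ether lipids 3 of 6, redox and oxidases 4 of 11, and regulators 3 of 9. The totals by list include listed genes without a count. The highest per kb were the peroxiredoxin genes Prdx5 at 118 ± 32.2 and Prdx1 at 103 ± 26.7 CPM per kb, and the autophagy receptor gene Sqstm1 at 193 ± 80.9 and the fission adaptor gene Fis1 at 77.3 ± 26.6 CPM per kb (SD, n = 4). All of these also act outside the peroxisome.

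Closer to the organelle, the membrane carrier gene Slc25a17 stood at 34.9 ± 4.18 and Tmem135 at 30.8 ± 13.1 CPM per kb. The enoyl-CoA reductase gene Pecr stood at 43.2 ± 15.7 and the carnitine octanoyltransferase gene Crot at 23.8 ± 5.32. In ether lipid synthesis, Dhrs7b, a reductase, stood at 28.7 ± 9.76 and Far1, which supplies the fatty alcohol, at 14.9 ± 4.54 CPM per kb (SD, n = 4). Among regulators, the highest were Tfe3 at 13.5 ± 5.37 and Tfeb at 3.90 ± 1.21 CPM per kb. Ppara, the receptor that drives peroxisome genes in liver, had 0 counts in all 4 libraries, which allows up to 0.129 to 0.147 CPM. The liver enzymes Hao1, Hao2, Uox, Baat, Slc27a2 and Acot4 likewise had no count in any library. Ppara and these 6 genes are named for being at 0, which was seen in the data before they were picked.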

How the data were processed

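The authors deposited whole-number read counts, not normalised, with 1 gene symbol per row and a file for each library. Tools named in the submitters' processing notes are HTSeq 0.11.2, SAMtools 1.16.1 and STAR 2.7.10a, with build GRCm39. Which annotation, strand setting and read filters were used is not stated there. The 5 closing rows of each file, for reads given to no gene, held 20.8% ± 1.28 (SD, n = 4) of the reads listed and were left out, and 2.28% ± 0.12 were ambiguous between genes. The floor of 3 counts covers counting error alone, as amplified reads are not independent molecules.

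CPM used the total assigned to genes. Exon lengths were the union of exons in GENCODE M21 (build GRCm38), found by symbol for all 29 members and for 89.1% of all rows (98.3% of counts). Ratios within a library used a pseudocount of 0.5 counts. The spread test was run in edgeR 4.0.16 in R 4.3.3: TMM scaling, filterByExpr with a minimum count of 10, an intercept-only glmQLFit, each gene's dispersion against the trend by an upper-tail F test, and Benjamini-Hochberg adjustment over 9075 genes. The biological coefficient of variation was 0.535. It was tested on simulated counts for those genes, with 100 genes changed 4-fold and 100 changed 16-fold. DESeq2 1.42.0 and other scalings, filters, lengths and pseudocounts were the alternatives. Python 3.11.15 did the rest.

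The members, lists, pairs and tests were chosen with earlier results of these data known. Named are all 29 members, the 2 genes of highest level per kb in each other list, and any gene past the test. Outside that rule, Ppara and the liver enzymes were named for having no count, as was Ms4a1. Acaa1b was named as a close copy of a member, and Dnm1l for its unadjusted p in an alternative fit. Lists were membrane and quality control, division and turnover, fatty acid and CoA enzymes, ether lipid, redox and oxidases, regulators, and 10 cell type lists with an immediate early list. 1 marker of the fixed lists is not reported here.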

Additional observations from a re-analysis of the deposited data

Results flagged for a closer look

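In 6 of 54 sets of 4 values, 1 library lay further from the other 3 than Dixon's test at its 95% critical value allows. Chance gives about 5% of independent sets. The 54 sets are the levels of the 29 members and sums and ratios built from them. They are not independent, so the 6 cannot be set against that share. Of the 29 levels, 1 was flagged, that of Hsd17b4. Hsd17b4 stood at 180 CPM in replicate 1, where the next highest library had 124 CPM. The summed level of the import receptor genes Pex5 and Pex7 was 17.6 CPM in replicate 4, against 64.4 CPM in the next lowest. The 3 ABCD transporter genes summed to 364 CPM in replicate 4, against 194 CPM in the next highest. The log2 ratio of Pex13 over Pex14 was 2.60 in replicate 3 and 0.94 in the next highest. The log2 ratio of Pex11a over Pex11g was 8.90 in replicate 4, where Pex11g had 0 counts, and that of Phyh over Hacl1 was 12.16 in replicate 1, where Hacl1 had 0 counts, so both sizes depend on the pseudocount.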

How the results depend on the processing

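The count of members detected in every library was 22 with TMM, with DESeq2 size factors and at thresholds of 0.5 and 2 CPM, and 22 to 25 without 1 replicate. No member and no other peroxisome gene passed the spread test under any of the 10 alternatives run, DESeq2's included, and no gene of the whole table did either. Before adjustment, Decr2 passed 0.05 in the 2 fits that replaced the filter and kept this gene, where 2.15% of 21681 and 4.71% of 8175 genes did, and Pex6 and the division gene Dnm1l, of the other peroxisome genes, did without replicate 4, where 4.29% of 11259 genes did. TMM moved all levels of a library by -0.11 to 0.08 on the log2 scale, and mean levels of members by factors of 0.961 to 1.04 over both scalings. Without 1 replicate, the mean moved by over 1.5-fold for 5 members: Pex10 to 13.1 and Decr2 to 10.7 CPM without replicate 4, Pex6 to 4.24 and Pex26 to 0.996 CPM without replicate 2, and Pex11g to 2.27 CPM without replicate 1. The same 13 of 14 pairs kept 1 order in every library with the pseudocounts of 0.1 and 1 and without any 1 replicate. With no length correction 13 pairs had 1 order, of which 12 were the same, as Gnpat over Agps was lost and Pex5 over Pex7 gained. With the longest transcript as length 11 of the 13 remained, without Abcd3 over Abcd2 and Gnpat over Agps. Of 112 mean ratios under these settings, 2 turned in sign: Pex5 over Pex7, which ranged from -1.37 to 0.54 without 1 replicate and was positive only without replicate 4, and Gnpat over Agps to -0.49 with no length correction. No paired analysis was possible because there is only 1 group. Counts of 3 or fewer limit Pex6, Pex26 and Pex11g in replicate 4 and Ehhadh and Hacl1 in replicate 1.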
